A study of Mus musculus with 200 samples.

Results

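GSK-J4 is a cell-permeable inhibitor of KDM6A and KDM6B, the demethylases that remove the repressive mark H3K27me3, and at higher doses it also acts on other Jumonji demethylases. The experiment described here asked what the compound does to RNA in the mouse epiblast at embryonic day (E) 5.0. Its members are the 3 GSK-J4 and the 3 control epiblast (Epi) libraries at E5.0 that share a table, 6 of the 200 libraries of the series. The series followed epiblast and primitive endoderm (PrE) through the peri-implantation period, after knockouts, a degron or GSK-J4. Per the design text, blastocysts were given 50 µM GSK-J4 at E3.5 and cultured on, and the tissue labelled Epi was profiled at E5.0 by Smart-seq2, a full-length RNA-seq method for few cells. The treated libraries carry the genotype label GSK treatment and no other allele. The control libraries are labelled wild type, and the sources used here do not say what vehicle they received. Each library was made from about 10 to 100 cells, and the labels speak of 3 biological replicates a group without saying which embryos were pooled, so adjusted p-values measure the spread between these libraries, which may in part be technical.

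The epiblast gives rise to the embryo proper, and the PrE gives rise to the endoderm of the visceral and parietal yolk sac. The 2 lineages separate in the blastocyst, where NANOG marks epiblast precursors and GATA6 marks endoderm precursors, and around implantation the epiblast leaves the naive pluripotent state for a formative one. H3K27me3 is laid down by Polycomb repressive complex 2 (EZH2 or EZH1, EED and SUZ12), and KDM6A and KDM6B take it off. GSK-J4 belongs to compounds that occupy the iron and 2-oxoglutarate site of the enzyme, a site that is shared across a large family of oxygenases.

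4 other sets of libraries serve for comparison, each against its own controls. They are GSK-J4 against control Epi at E4.5 (3 each, with no dose in the labels), wild-type control PrE against wild-type control Epi at E5.0 (3 each), and the Kdm6a KO and Kdm6b KO Epi at E5.0, made by C-CRISPR, each against wild-type controls of its screen batch (3 each). The tables hold TPM, a per-length abundance scaled to a common total, and were made separately, so levels from different tables are set side by side and not tested.

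The libraries differed in ways that touch every result. The 3 control libraries were far more alike (Pearson r of log2(TPM + 1) 0.988 to 0.989) than the 3 treated ones (0.933 to 0.937), while both E4.5 groups had r of 0.922 to 0.937. Genes with a level of at least 1 TPM numbered 9945 to 10331 in treated libraries and 10445 to 10480 in control libraries. The 10 most abundant genes took 11.4% to 11.7% of TPM in treated libraries and 7.62% to 7.72% in control libraries. Across 10681 genes, the control libraries correlated at 0.975 to 0.976 with the mean of 26 E5.0 screen controls labelled Epi and at 0.793 to 0.797 with the PrE controls. With E4.5 controls the control libraries correlated at 0.880 to 0.883. Treated libraries correlated at 0.848 to 0.854 with their own controls, at 0.785 to 0.793 with PrE controls and at 0.831 to 0.837 with E4.5 controls.

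The label Epi was checked against defining markers. Pou5f1 had 118, 98.8 and 126 TPM in the 3 treated libraries, against 55.3, 68.2 and 60.9 TPM in the 3 control libraries. Tdgf1 had 20.6, 42.4 and 54.1 TPM in the 3 treated libraries, against 254, 234 and 244 TPM in the 3 control libraries. Both pluripotency genes were detected in all 6 libraries, whereas Sox2 stood under the filter, at 0, 3.94 and 0.264 TPM in treated and 2.32, 0.933 and 0.548 TPM in control libraries. Both groups also held trophoblast transcripts. Krt8, a keratin of trophoblast, averaged 797 ± 24 TPM in treated and 1125 ± 31.5 TPM in control libraries, and Elf5, a regulator of extraembryonic ectoderm, averaged 17.9 ± 2.55 TPM in treated and 68.8 ± 5.84 TPM in control libraries. Treated libraries in addition held PrE markers such as Gata4 and Dab2 that were low in the controls, with the values given next. In libraries of many cells, more cells of a type and more RNA per cell cannot be told apart. Means are given with their SD over 3 libraries a group, or over 2 for PrE controls, a pair of which were near copies (r = 0.997) and were averaged.

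Of 10681 genes tested with limma on log2(TPM + 1), 1778 rose with GSK-J4 (16.6%) and 1245 fell (11.7%) at a Benjamini-Hochberg adjusted p under 0.05. The 2 groups did not overlap for 4808 genes (45%), and the median change of all genes was 0.12 on the log2 scale. All fold changes are on this log2(TPM + 1) scale, which understates the change of low genes. Without control library 1, 2 or 3, the calls numbered 1785, 1674 and 1725, and with the controls averaged to 1 library they numbered 455, of which 215 rose and 240 fell. The split also moved with scaling: quantile normalization gave 1364 rises and 1453 falls, and centring each library on its median gave 973 rises and 2450 falls.

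The largest rises included many endoderm genes. Dab2 had 523, 486 and 571 TPM in the 3 treated libraries, against 5.46, 8.24 and 5.88 TPM in the 3 control libraries. Dab2 changed by 6.15 ± 0.185 on the log2 scale (SE, n = 3 each, limma adjusted p = 1.76e-06). DAB2 is an endocytic adaptor used as a marker of extraembryonic endoderm. Its treated libraries lay far above every control library. Spink1, a secreted trypsin inhibitor, averaged 473 ± 62.7 TPM in treated and 0.888 ± 0.850 TPM in control libraries, and Flrt3, an adhesion molecule of the endoderm, averaged 315 ± 42.4 TPM in treated and 0.676 ± 0.541 TPM in control libraries. Npl, a sialic acid lyase, averaged 581 ± 52.5 TPM in treated and 5.8 ± 2.24 TPM in control libraries. Plat, which encodes tissue plasminogen activator, was listed at 0 in every control library and at 172, 147 and 128 TPM in the treated ones. The largest falls included Duoxa2 and Fgfbp1, which, like Gsto1, were also lower in PrE controls than in Epi controls. Fgfbp1, a carrier of FGF ligands, averaged 3.84 ± 5.44 TPM in treated and 213 ± 13 TPM in control libraries, and Duoxa2, the maturation factor of a dual oxidase, averaged 1.96 ± 3.4 TPM in treated and 141 ± 7.66 TPM in control libraries. Gsto1, a glutathione transferase, fell to 327 ± 41.4 TPM in treated libraries, against 2269 ± 123 TPM in control libraries.

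**Figure D1:**
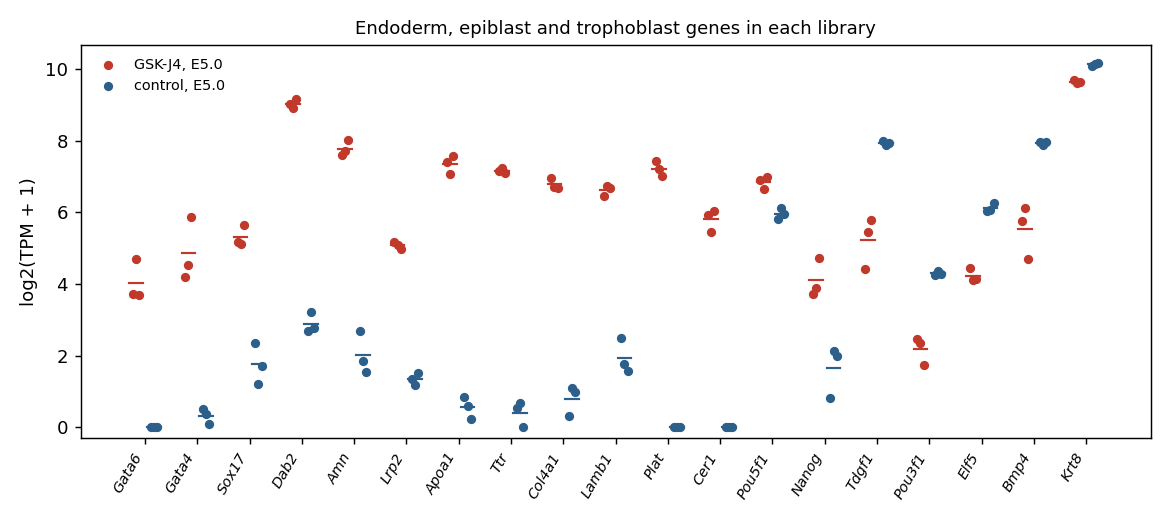
Log2(TPM + 1) of endoderm, epiblast and trophoblast genes in each E5.0 library, with GSK-J4 libraries in red at the left of each pair, control libraries in blue at the right, and the group mean as a bar. The 3 treated libraries sit above the 3 control libraries for Gata6, Gata4, Sox17, Dab2, Amn, Lrp2, Apoa1, Ttr, Col4a1, Lamb1, Plat, Cer1, Pou5f1 and Nanog, and below them for Tdgf1, Pou3f1, Elf5, Bmp4 and Krt8.

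PrE genes rose among factors, receptors, secreted proteins and matrix. In the list of PrE transcription factors, which also holds the receptor gene Pdgfra and the adaptor gene Grb10, 13 of 16 members passed the filter. Members at 0 in every control library, such as Gata6, passed it through the treated libraries. Among the 13 tested members 11 rose and 1 fell, with a median log2 change of 3.55. Gata4 had 17.3, 22.1 and 57.6 TPM in the 3 treated libraries, against 0.424, 0.291 and 0.0667 TPM in the 3 control libraries. Sox17 had 35.1, 33.6 and 49 TPM in the 3 treated libraries, against 4.12, 1.32 and 2.29 TPM in the 3 control libraries. Gata6, the earliest PrE factor, was listed at 0 in every control library and at 12.1, 25 and 11.9 TPM in treated libraries. Sox7 averaged 45.6 ± 4.98 TPM in treated and 0.529 ± 0.876 TPM in control libraries, Hhex averaged 36.1 ± 5.45 TPM in treated and 1.58 ± 0.642 TPM in control libraries, and Foxa2 averaged 16.5 ± 2.32 TPM in treated and 0.344 ± 0.537 TPM in control libraries. The member that fell was Sall1, a zinc finger factor also expressed in pluripotent cells, at 0.688 ± 0.405 TPM in treated and 3.58 ± 0.733 TPM in control libraries. Sall1 missed the threshold without control library 1, 2 or 3 (limma adjusted p 0.0793 to 0.121). The summed level of the whole list was 412 to 504 TPM in treated libraries, against 83.9 to 113 TPM in control libraries, while PrE controls of another table held 2762 to 3114 TPM.

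Endocytic receptors, serum proteins and basement membrane followed. Of the receptor and adaptor genes with which visceral endoderm takes up maternal nutrients, 8 of 12 rose and none fell (median 2.98). Amn had 194, 209 and 259 TPM in the 3 treated libraries, against 5.43, 2.63 and 1.89 TPM in the 3 control libraries. Amn anchors the cubilin receptor, and Cubn itself averaged 35.7 ± 2.86 TPM in treated and 1.09 ± 0.404 TPM in control libraries. Lrpap1, the chaperone of the megalin receptor family, averaged 1678 ± 81.5 TPM in treated and 59.3 ± 9.59 TPM in control libraries. Among serum and lipid transport proteins 8 of 13 rose and 2 fell. Apoa1 averaged 164 ± 28.1 TPM in treated and 0.486 ± 0.308 TPM in control libraries. Ttr, the thyroid hormone carrier, averaged 143 ± 7.33 TPM in treated libraries, against 0.352 ± 0.314 TPM in control libraries. Both stood higher in PrE controls, at 1007 ± 81.4 TPM for Apoa1 and 1423 ± 200.2 TPM for Ttr. Apoe averaged 5206 ± 396 TPM in treated and 747 ± 8.43 TPM in control libraries, above the 2904 ± 142 TPM of PrE controls. The 2 members that fell were Apoa2, listed at 0 in every treated library and at 9.11, 9.49 and 9.51 TPM in control libraries, and Cyp26a1, which clears retinoic acid, at 71.4 ± 14.5 TPM in treated and 151 ± 10.9 TPM in control libraries. Alb, Afp and the fibrinogen genes did not pass the filter on low values.

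Of basement membrane genes, 16 of 20 rose and none fell, with a median log2 change of 3.28. Col4a1 had 123, 104 and 101 TPM in the 3 treated libraries, against 0.241, 1.14 and 0.989 TPM in the 3 control libraries. Col4a1 encodes a collagen IV chain, and Serpinh1, the collagen chaperone, averaged 126 ± 8.4 TPM in treated and 1.95 ± 0.714 TPM in control libraries. P4ha2, a collagen prolyl hydroxylase, averaged 226 ± 19.4 TPM in treated and 9.45 ± 2.7 TPM in control libraries. Structural chains and collagen-modifying enzymes both had members that rose. Of parietal endoderm genes 8 of 10 rose and none fell. Srgn, a proteoglycan core protein, averaged 1088 ± 19.3 TPM in treated and 16.6 ± 4.23 TPM in control libraries, and Pga5, a pepsinogen, averaged 278 ± 84.1 TPM in treated and 12.9 ± 2.77 TPM in control libraries. Plat stood at 3.61 ± 1.29 TPM in PrE controls and at 5.86 ± 5.35 TPM in E4.5 controls, against 149 ± 22.4 TPM in GSK-J4 libraries at E5.0. Adh1, an alcohol dehydrogenase, was likewise high in GSK-J4 libraries (509 ± 91.9 TPM) and near 0 in PrE controls (0.746 ± 1.05 TPM).

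Signals of the anterior visceral endoderm, the endoderm that patterns the epiblast, split by gene. Of 8 tested members 7 rose and 1 fell. Cer1, which encodes a secreted Nodal and WNT antagonist, was listed at 0 in every control library and at 59.6, 42.8 and 64.6 TPM in treated libraries. Lhx1, a transcription factor of this tissue, averaged 12.9 ± 4.65 TPM in treated and 0.0457 ± 0.0665 TPM in control libraries. Hesx1, another such factor, averaged 33.1 ± 4.79 TPM in treated libraries, against 0.709 ± 0.504 TPM in control libraries. Lefty1, another Nodal antagonist, went the other way: it was listed at 0 in every treated library and at 13.7, 9.27 and 13.2 TPM in control libraries.

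Epiblast markers did not move as a block. Of 16 tested members, 4 rose and 5 fell, with 7 that did not pass. Nanog had 12.2, 13.9 and 25.4 TPM in the 3 treated libraries, against 0.752, 3.37 and 2.98 TPM in the 3 control libraries. Nanog changed by 2.47 ± 0.505 on the log2 scale (SE, n = 3 each, limma adjusted p = 0.0092). Pou3f1 had 4.46, 4.1 and 2.36 TPM in the 3 treated libraries, against 18.2, 19.5 and 18.3 TPM in the 3 control libraries. Pou3f1 changed by -2.12 ± 0.353 on the log2 scale (SE, n = 3 each, limma adjusted p = 0.00379). Neither gene overlapped between groups. Nanog and Dppa5a (9219.7 ± 347 TPM in treated and 4668 ± 163 TPM in control libraries) mark early epiblast, whereas Pou3f1, a POU factor, and Dnmt3b (35.7 ± 8.42 TPM in treated and 103 ± 7.36 TPM in control libraries), a de novo DNA methyltransferase, are known to rise as the epiblast becomes formative. Dppa5a was not among the genes called at least 2-fold higher in control Epi than in control PrE. The summed epiblast list stood at 11753 to 12698 TPM in PrE controls and at 6967 to 9756 TPM in Epi controls of the same table. Otx2 and Pou5f1 rose and Tdgf1, Dppa4 and Lefty2 fell. Otx2 averaged 38 ± 4.11 TPM in treated and 17.2 ± 5.6 TPM in control libraries, Dppa4 averaged 124 ± 9.87 TPM in treated and 299 ± 20.2 TPM in control libraries, and Fgf5, a formative marker, did not pass (24.2 ± 15.6 TPM in treated and 26.2 ± 3.12 TPM in control libraries). Of naive pluripotency genes 6 of 13 rose and 1 fell. Tbx3 averaged 23.5 ± 4.21 TPM in treated and 0.505 ± 0.349 TPM in control libraries. Klf4 averaged 21.2 ± 12.1 TPM in treated libraries, against 2.2 ± 0.788 TPM in control libraries, while Zfp42 fell to 179 ± 31.9 TPM in treated libraries, against 242 ± 3.5 TPM in control libraries. Otx2 missed the threshold without control library 2 or 3 (limma adjusted p 0.0772 to 0.0810) and Zfp42 without control library 1, 2 or 3 or treated library 2 or 3 (limma adjusted p 0.0657 to 0.162). The naive list gave 3 to 5 rises and 0 to 3 falls with 1 library left out, 5 rises and 2 falls under quantile normalization, and 4 rises and 2 falls under median centring. The epiblast list gave 2 rises and 6 falls under median centring. In the E4.5 controls, Nanog stood at 76.2 ± 19.6 TPM, Klf4 at 14.6 ± 5.31 TPM and Pou5f1 at 537 ± 83.1 TPM.

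Trophoblast genes fell more often than they rose. Of extraembryonic ectoderm and trophoblast factors, 5 of 19 fell and 1 rose, and of trophoblast keratins and placental genes 10 of 20 fell and 3 rose. The factor list gave 0 to 1 rises and 4 to 9 falls with 1 library left out, 0 rises and 8 falls under quantile normalization, and 0 rises and 12 falls under median centring. Bmp4 had 53.4, 68.4 and 25.1 TPM in the 3 treated libraries, against 250.3, 233 and 250.01 TPM in the 3 control libraries. Bmp4 changed by -2.41 ± 0.327 on the log2 scale (SE, n = 3 each, limma adjusted p = 0.00149). Bmp4 is the extraembryonic ectoderm signal that induces germ cells. Elf5, Id2, Ddah1 and Cdx2 were the other factors that fell, and Ascl2, a placental regulator, rose (31.3 ± 10.2 TPM in treated and 12.4 ± 3.79 TPM in control libraries). Ascl2 missed the threshold without control library 1, 2 or 3 or treated library 1 or 2 (limma adjusted p 0.0500 to 0.124) and Cdx2 without control library 1, 2 or 3 (limma adjusted p 0.0540 to 0.0755). Phlda2, an imprinted placental growth restrainer, averaged 195 ± 14.9 TPM in treated and 1181 ± 65.7 TPM in control libraries, and Rhox5, a homeobox gene of the X chromosome, averaged 1294 ± 102 TPM in treated and 3737 ± 305 TPM in control libraries. Krt18 also fell, to 1795 ± 92.7 TPM in treated libraries, against 2329.6 ± 113 TPM in control libraries. Sct, Cldn6 and Lgals3 were the placental members that rose. The summed factor list stood at 979 to 1000.0 TPM in treated and 2334 to 2458 TPM in control libraries. Its level thus moved with the epiblast and endoderm results, and its part in them was not tested. Wild-type Epi controls at E5.0 of another table held 1014 to 1235 TPM of this list. For the keratin and placental list, treated libraries summed to 5783 to 6067 TPM and control libraries to 9687 to 10386.5 TPM, against 4480 to 4885 TPM in those Epi controls. The control libraries of this experiment thus stood above the other Epi controls for both lists, which was not tested.

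Markers of maternal blood and decidua were nearly absent. Of 24 listed genes 9 passed the filter, 2 rose and 4 fell, and Ptprc, Tyrobp, Col3a1, Lum, Prl8a2 and Hbb-bs were at 0 in all 6 libraries. Cd52, S100a8 and S100a9, leukocyte genes, were listed at 0 in every treated library and fell. In control libraries Cd52 had 6.83, 4.07 and 10.8 TPM, S100a8 6.36, 5.33 and 7.3 TPM and S100a9 4.71, 3.32 and 7.22 TPM. Cryab, a small heat shock protein that many tissues make, carried most of the list's sum, at 164 ± 24.8 TPM in treated and 71.4 ± 2.26 TPM in control libraries.

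**Figure D2:**
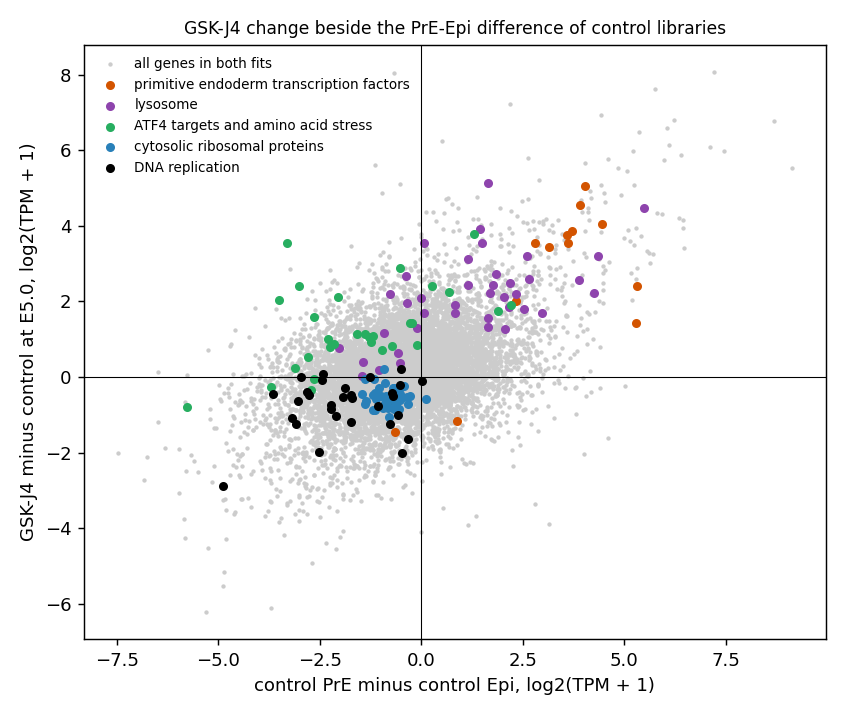
GSK-J4 minus control at E5.0 (vertical axis) against control PrE minus control Epi of another table (horizontal axis), both in log2(TPM + 1), for all genes in both fits (grey) and 5 lists (coloured). PrE factors and most lysosomal genes lie in the upper right, ATF4 targets lie mostly in the upper left, and ribosomal protein and DNA replication genes lie in the lower left.

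The targets of GSK-J4 and the Polycomb machinery passed about as often as all genes tested. Kdm6b had 33.1, 36.2 and 38.2 TPM in the 3 treated libraries, against 18, 19.8 and 22.1 TPM in the 3 control libraries. Kdm6b changed by 0.81 ± 0.210 on the log2 scale (SE, n = 3 each, limma adjusted p = 0.0233). Kdm6a had 6.53, 7.47 and 12.1 TPM in the 3 treated libraries, against 7.9, 6.71 and 4.92 TPM in the 3 control libraries. Kdm6b rose and Kdm6a did not pass, with groups that overlapped (log2 change 0.35 ± 0.391 SE, limma adjusted p = 0.568). Of 24 tested members of the list, 4 rose (16.7%) and 3 fell (12.5%), against 16.6% and 11.7% of all genes tested. The list gave 0 to 4 rises and 0 to 3 falls with 1 library left out, 2 rises and 3 falls under quantile normalization, and 1 rise and 6 falls under median centring. Ezh1, a paralogue of Ezh2, averaged 23.7 ± 13.8 TPM in treated and 3.89 ± 1.66 TPM in control libraries, and Cbx8, a chromodomain subunit, averaged 34.9 ± 26.9 TPM in treated and 4.59 ± 1.86 TPM in control libraries. Ezh2, Eed and Suz12 did not pass, and Ezh2 averaged 25.8 ± 10.2 TPM in treated and 42.5 ± 6.25 TPM in control libraries. Jarid2, Phf19 and Pcgf6, accessory subunits of Polycomb complexes, fell. Kdm6b changed by 0.43 under quantile normalization (limma adjusted p = 0.202) and by 0.32 under median centring (limma adjusted p = 0.292). Without control library 1, 2 or 3 the limma adjusted p was 0.0950, 0.0926 and 0.0673 for Kdm6b, 0.0791, 0.0511 and 0.0860 for Ezh1 and 0.121, 0.187 and 0.130 for Cbx8, all with the same sign. Jarid2 missed the threshold without control library 1, 2 or 3 or treated library 3 (limma adjusted p 0.0527 to 0.208), Phf19 without control library 1, 2 or 3 (limma adjusted p 0.0516 to 0.0892) and Pcgf6 without control library 1, 2 or 3 or treated library 1 or 2 (limma adjusted p 0.0507 to 0.123). Of other Jumonji demethylases 4 of 15 rose (26.7%) and none fell. The Jumonji list gave 1 to 4 rises and 0 to 2 falls with 1 library left out, 3 rises and 1 fall under quantile normalization, and 3 rises and 3 falls under median centring. Kdm3a, an H3K9 demethylase that hypoxia induces, averaged 27 ± 17.1 TPM in treated and 3.81 ± 0.893 TPM in control libraries, and Kdm4b, of the same substrate class, averaged 6.34 ± 0.526 TPM in treated and 0.970 ± 0.437 TPM in control libraries. Kdm4c averaged 24.5 ± 6.68 TPM in treated libraries, against 7.78 ± 1.07 TPM in control libraries. Kdm5a, Kdm5b and Kdm5c did not pass, and neither did Kdm1a, which is not a Jumonji enzyme. Kdm3a missed the threshold without control library 1, 2 or 3 (limma adjusted p 0.0652 to 0.0791), Kdm4b without control library 3 (limma adjusted p = 0.0646) and Kdm4c without control library 1 (limma adjusted p = 0.0519). Of 45 developmental Polycomb targets only 11 passed the filter, of which 3 rose (27.3%) and 1 fell (9.09%). The 3 that rose were Gata6, Gata4 and Sox17, which are also PrE factors, and Wnt6 fell (0.555 ± 0.960 TPM in treated and 12.6 ± 0.910 TPM in control libraries).

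RNA of genes of the integrated stress response was among the clearest changes outside the endoderm lists. The activity of the response itself was not measured. ATF4 is the transcription factor that is translated when eIF2 is phosphorylated, and it drives amino acid synthesis, transport and tRNA charging. Of 32 tested ATF4 targets and amino acid stress genes 22 rose and 1 fell, with a median log2 change of 1.11. Ddit3 had 464, 557 and 646 TPM in the 3 treated libraries, against 34.4, 37.7 and 46.6 TPM in the 3 control libraries. Ddit3 changed by 3.78 ± 0.167 on the log2 scale (SE, n = 3 each, limma adjusted p = 8.78e-06). Nupr1 had 515, 586 and 514 TPM in the 3 treated libraries, against 42.1, 49.3 and 43.7 TPM in the 3 control libraries. Nupr1 changed by 3.55 ± 0.117 on the log2 scale (SE, n = 3 each, limma adjusted p = 2.23e-06). Ddit3 encodes the stress factor CHOP and Nupr1 a stress-induced chromatin protein, and neither overlapped between groups. Trib3, a pseudokinase of the same response, averaged 216 ± 25.2 TPM in treated and 39.9 ± 3.7 TPM in control libraries. Slc1a4, a neutral amino acid transporter, averaged 18.4 ± 14.3 TPM in treated and 2.11 ± 0.335 TPM in control libraries, and Atf5 averaged 12.6 ± 7.38 TPM in treated and 0.707 ± 0.201 TPM in control libraries. The serine synthesis genes Phgdh and Psat1 and the serine-to-glycine enzyme gene Shmt2 did not pass, and Slc38a2, an amino acid transporter, was the member that fell. Slc1a4 missed the threshold without control library 1, 2 or 3 (limma adjusted p 0.0596 to 0.0712) and Slc38a2 without control library 1, 2 or 3 (limma adjusted p 0.0646 to 0.0963). The ATF4 list gave 16 to 22 rises and 0 to 4 falls with 1 library left out, and 17 rises and 5 falls under median centring. This list differed from the endoderm lists in its lineage direction: in control libraries 22 of 34 members were lower in PrE than in Epi and 3 were higher. In the control PrE against control Epi fit as a whole, 16.5% of genes were higher and 33.5% lower. Of the 19 ATF4 members that were at least 2-fold higher in control Epi, 13 rose with GSK-J4 and none fell. PrE controls held Nupr1 at 0.978 ± 1.38 TPM and Trib3 at 1.33 ± 0.0284 TPM.

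6 promoters from the ATF4 target and lysosomal lists are shown. They were picked because each belongs to a risen member and holds the motif named for its list. They are RefSeq windows from 250 bases before to 50 after a start site (GRCm38.p6, the build of the submitters' notes), printed 5′ to 3′ in lower case with the motif in capitals. For ATF4 targets the motif was the core of the amino acid response element, TGATGCAA, or TTGCATCA on the other strand.
Nupr1 (chr7:126625421-126625720, minus strand): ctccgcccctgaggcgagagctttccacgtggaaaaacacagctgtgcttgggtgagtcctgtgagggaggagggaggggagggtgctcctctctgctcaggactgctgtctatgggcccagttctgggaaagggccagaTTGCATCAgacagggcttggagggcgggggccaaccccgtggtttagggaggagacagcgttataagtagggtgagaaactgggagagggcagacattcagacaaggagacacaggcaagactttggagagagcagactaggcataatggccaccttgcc
Chac1 (chr2:119350992-119351291, plus strand): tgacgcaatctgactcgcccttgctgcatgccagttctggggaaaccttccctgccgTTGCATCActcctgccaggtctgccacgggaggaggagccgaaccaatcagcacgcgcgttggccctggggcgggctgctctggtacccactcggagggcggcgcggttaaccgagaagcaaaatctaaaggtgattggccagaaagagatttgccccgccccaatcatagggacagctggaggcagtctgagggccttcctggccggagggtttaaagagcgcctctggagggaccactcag
Atf3 (chr1:191183284-191183583, minus strand): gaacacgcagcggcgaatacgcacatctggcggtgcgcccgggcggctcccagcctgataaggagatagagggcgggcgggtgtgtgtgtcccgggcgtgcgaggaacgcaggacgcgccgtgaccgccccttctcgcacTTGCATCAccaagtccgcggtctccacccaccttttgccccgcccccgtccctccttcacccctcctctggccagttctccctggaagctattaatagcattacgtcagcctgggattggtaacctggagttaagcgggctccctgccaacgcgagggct
For lysosomal genes the motif was the core of the CLEAR element that TFEB and TFE3 bind, TCACGTGA, which reads the same on both strands.
Ctsa (chr2:164833523-164833822, plus strand): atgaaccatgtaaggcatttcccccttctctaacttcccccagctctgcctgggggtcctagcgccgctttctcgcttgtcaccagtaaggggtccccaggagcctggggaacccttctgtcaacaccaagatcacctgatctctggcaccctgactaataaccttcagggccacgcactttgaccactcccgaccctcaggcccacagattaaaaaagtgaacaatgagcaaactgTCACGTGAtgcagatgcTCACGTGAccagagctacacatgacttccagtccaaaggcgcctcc
Mcoln1 (chr8:3500269-3500568, plus strand): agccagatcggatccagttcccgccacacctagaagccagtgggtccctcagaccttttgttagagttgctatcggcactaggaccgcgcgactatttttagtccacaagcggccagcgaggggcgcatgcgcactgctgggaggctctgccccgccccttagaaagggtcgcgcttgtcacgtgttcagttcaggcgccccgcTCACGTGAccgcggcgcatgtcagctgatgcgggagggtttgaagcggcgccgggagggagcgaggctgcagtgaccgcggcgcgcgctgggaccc
Atp6v0d1 (chr8:105566015-105566314, minus strand): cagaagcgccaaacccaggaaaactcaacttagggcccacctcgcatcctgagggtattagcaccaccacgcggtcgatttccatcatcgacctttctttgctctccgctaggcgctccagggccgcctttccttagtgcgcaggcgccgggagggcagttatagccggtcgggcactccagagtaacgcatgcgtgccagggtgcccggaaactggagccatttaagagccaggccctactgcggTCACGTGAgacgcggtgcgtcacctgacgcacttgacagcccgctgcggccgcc
The amino acid response core lay in 9 of 33 listed genes with a window and in 6 of 21 that rose, against 0.895% of all 32851 windows and 0.658% of 8512 tested genes with a window. The CLEAR core lay in 6 of 32 lysosomal genes with a window, all 6 among the 26 that rose, against 0.974% of all windows and 2.43% of tested genes. Chac1, Atf3, Mcoln1 and Atp6v0d1 were named for their motif. Chac1, a glutathione-degrading enzyme, averaged 102 ± 34.3 TPM in treated and 22.8 ± 0.781 TPM in control libraries. Atf3, a stress transcription factor, averaged 23.3 ± 7.12 TPM in treated libraries, against 6.3 ± 2.54 TPM in control libraries. Mcoln1, a lysosomal calcium channel, averaged 154 ± 25.5 TPM in treated and 32.9 ± 4.43 TPM in control libraries, and Atp6v0d1, a proton pump subunit, averaged 409 ± 43 TPM in treated libraries, against 74.2 ± 3.45 TPM in control libraries. Atf3 missed the threshold without control library 1 or 2 (limma adjusted p 0.0654 to 0.0675). For the PrE lists the GATA core AGATAA, searched on both strands, was found in 2 of 10 factors, 1 of 10 receptors and 0 of 15 basement membrane genes with a window, against 7.47% of tested genes. The ATF4 and lysosomal lists were drawn up from known targets or functions. A high motif share in them could be foreseen and is not a result of this experiment. Within the ATF4 list 6 of the 9 genes with the core rose, beside 21 of all 33 with a window. In the lysosomal list all 6 did, beside 26 of 32. A match is a string of letters in this window and does not show that a factor binds there.

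Chaperones of the endoplasmic reticulum moved by gene rather than as a set. Of 22 tested, 8 rose and 1 fell. The list gave 4 to 9 rises and 0 to 2 falls with 1 library left out, and 3 rises and 5 falls under median centring. Ero1l, the oxidase that feeds disulfide formation, averaged 156 ± 24.4 TPM in treated and 14.1 ± 4.4 TPM in control libraries, Xbp1, a transcription factor of the unfolded protein response, averaged 199 ± 38.2 TPM in treated and 62.3 ± 6.19 TPM in control libraries, and Herpud1, a degradation factor, averaged 342 ± 108 TPM in treated and 129 ± 12.8 TPM in control libraries. Hsp90b1, Canx and Pdia3, abundant chaperones and an isomerase, did not pass. Heat shock chaperones split, with 6 rises and 8 falls among 19. The heat shock list gave 4 rises and 10 falls under median centring. Hspa1a and Hspa1b, which are nearly identical in sequence so that reads may be shared between them, gave the largest rises of the list. Hspa1a averaged 13.1 ± 7.02 TPM in treated and 0.796 ± 0.476 TPM in control libraries and Hspa1b averaged 5.25 ± 3.18 TPM in treated libraries, against 0.191 ± 0.182 TPM in control libraries. Hspa1b missed the threshold without control library 1, 2 or 3 (limma adjusted p 0.0611 to 0.0797). Hspb1 fell to 183 ± 47.7 TPM in treated libraries, against 429 ± 45.7 TPM in control libraries. Hspe1, a mitochondrial co-chaperonin, fell to 837 ± 34.2 TPM in treated libraries, against 1562 ± 79.1 TPM in control libraries.

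Antioxidant and metal-binding genes diverged. NRF2 is a transcription factor that drives antioxidant genes, and of 25 tested targets 5 rose (20%) and 7 fell (28%). Among all genes tested 16.6% rose and 11.7% fell. The NRF2 list gave 4 to 6 rises and 4 to 10 falls with 1 library left out, and 3 rises and 12 falls under median centring. Nqo1 had 13, 13.4 and 4.87 TPM in the 3 treated libraries, against 75.6, 67.2 and 63.8 TPM in the 3 control libraries. Nqo1 changed by -2.72 ± 0.369 on the log2 scale (SE, n = 3 each, limma adjusted p = 0.00149). Nqo1, a quinone reductase, is the most used readout of NRF2. Me1, malic enzyme, went the other way, at 186 ± 39.7 TPM in treated and 6.01 ± 0.141 TPM in control libraries, and Gsta4, Gsr and Prdx1 fell while Gstm1 and Cat rose. Metallothioneins, small proteins that bind zinc and copper, gave some of the largest rises in TPM of all genes. Mt1 had 10272, 11041 and 10170.5 TPM in the 3 treated libraries, against 1352, 1413 and 1546 TPM in the 3 control libraries. Mt1 changed by 2.87 ± 0.0638 on the log2 scale (SE, n = 3 each, limma adjusted p = 7.75e-07). Mt2 had 4606, 5362 and 5031 TPM in the 3 treated libraries, against 926, 1012 and 1043 TPM in the 3 control libraries. Mt2 changed by 2.33 ± 0.0749 on the log2 scale (SE, n = 3 each, limma adjusted p = 1.98e-06). Every treated library exceeded every control library for both. PrE controls stood lower, at 728 ± 66.4 TPM for Mt1 and 154 ± 5.89 TPM for Mt2. Slc30a1, a zinc exporter that zinc induces, rose as well (2.8 ± 1.43 TPM in treated and 0.187 ± 0.103 TPM in control libraries), and the importer Slc39a10 fell (8.88 ± 0.853 TPM in treated and 22.6 ± 3.56 TPM in control libraries). Slc30a1 missed the threshold without control library 1, 2 or 3 (limma adjusted p 0.0804 to 0.0960) and Slc39a10 without control library 1, 2 or 3 (limma adjusted p 0.0565 to 0.0953). The metallothionein and zinc transport list gave 2 to 4 rises and 0 to 1 falls with 1 library left out, 3 rises and 2 falls under quantile normalization, and 2 rises and 2 falls under median centring. Of iron genes 2 of 14 rose (14.3%) and none fell, so the share that rose was no larger than that of all genes tested. The iron list gave 2 to 3 rises and 0 to 1 falls with 1 library left out, 1 rise and 2 falls under quantile normalization, and 2 rises and 5 falls under median centring. Ftl1, the ferritin light chain, had the largest rise in TPM of all genes, at 46676 ± 1324 TPM in treated and 22574 ± 339 TPM in control libraries; it has processed copies in the genome, and how reads were shared among them is not given in the sources used here. Ncoa4, the receptor that delivers ferritin to lysosomes, averaged 63.5 ± 7.03 TPM in treated and 23.9 ± 1.93 TPM in control libraries, while Fth1, Tfrc and the ferroportin gene Slc40a1 did not pass.

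**Figure D3:**
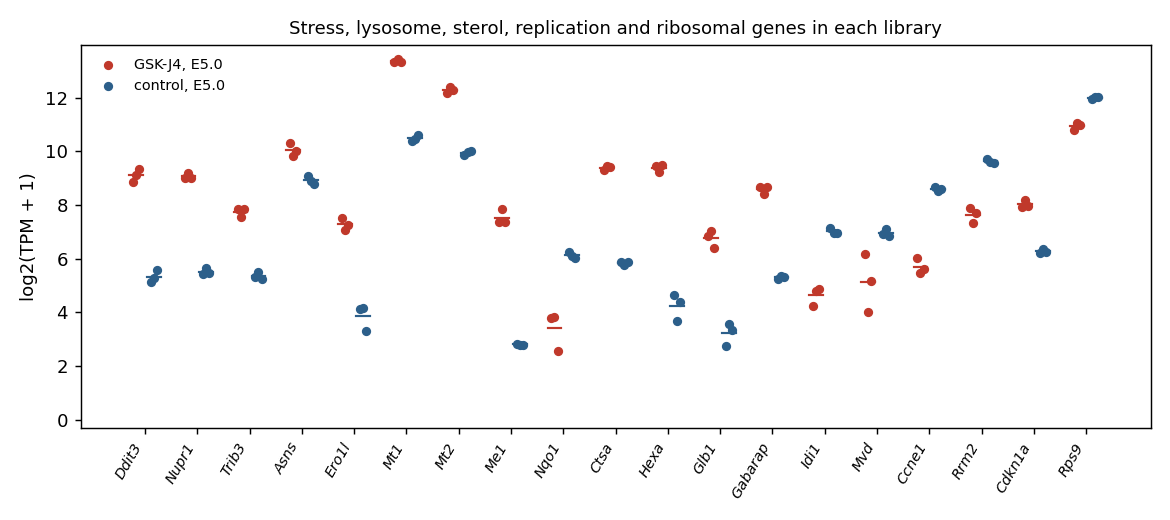
Log2(TPM + 1) of stress, metal, lysosome, sterol, replication and ribosomal genes in each E5.0 library, with GSK-J4 libraries in red at the left of each pair, control libraries in blue at the right, and the group mean as a bar. The treated libraries sit above the controls for the genes from Ddit3 to Me1, for Ctsa, Hexa, Glb1, Gabarap and Cdkn1a, and below them for Nqo1, Idi1, Mvd, Ccne1, Rrm2 and Rps9.

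Of the lists outside the endoderm, the lysosomal one had the largest share of members that rose. Of 39 tested, 34 rose and none fell, with a median log2 change of 2.12, and the summed level was 12497 to 13129 TPM in treated libraries, against 2854 to 2943 TPM in control libraries. Hexa had 699, 594 and 726 TPM in the 3 treated libraries, against 24.1, 11.9 and 20.1 TPM in the 3 control libraries. Hexa changed by 5.14 ± 0.243 on the log2 scale (SE, n = 3 each, limma adjusted p = 1.04e-05). Ctsa had 629, 693 and 683 TPM in the 3 treated libraries, against 58.4, 53.3 and 57.6 TPM in the 3 control libraries. Ctsa changed by 3.54 ± 0.0992 on the log2 scale (SE, n = 3 each, limma adjusted p = 1.49e-06). Hexa encodes the ganglioside-degrading hexosaminidase, and Ctsa the protective protein of galactosidase. Ctsh, a cathepsin, averaged 208 ± 41.8 TPM in treated and 8.48 ± 2.6 TPM in control libraries, and Gaa, acid alpha-glucosidase, averaged 95.7 ± 14.5 TPM in treated and 5.33 ± 0.724 TPM in control libraries. Proton pump subunits, membrane proteins and hydrolases all had members that rose, while Gusb, Psap, Ctsf and the regulators Tfeb and Tfe3 did not pass. The lysosome is prominent in endoderm, and 23 of the 39 members were at least 2-fold higher in control PrE than in control Epi; all 23 rose. Of the 7 members in the neutral class, which neither passed nor reached 1.5-fold between the lineages, 6 rose. Glb1 had 115, 131 and 84.5 TPM in the 3 treated libraries, against 5.67, 11 and 9.3 TPM in the 3 control libraries. Glb1, beta-galactosidase, belonged to that class, with 9.12 ± 1.36 TPM in PrE controls and 81.2 ± 37.4 TPM in E4.5 controls. Without any 1 library, 31 to 35 members rose, and with the controls averaged to 1 library 21 rose.

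Levels of the genes that rose were set beside 6 control libraries the call had not used, the 3 E4.5 controls and the 3 PrE controls. For 656 of 1778 rises (36.9%) the lowest treated library lay above all 6. For lysosomal genes this held for 17 of 34 rises (50%), for hypoxia and glycolysis genes for 13 of 16 (81.2%), and for metallothionein and zinc transport genes for 3 of 4. Hexa stood at 64.8 ± 15.2 TPM in PrE controls and at 279 ± 40 TPM in E4.5 controls, both under the treated mean. These levels come from 3 tables normalized separately, and the difference was not tested. Of autophagy genes 11 of 23 rose and 1 fell. The autophagy list gave 6 to 12 rises and 0 to 1 falls with 1 library left out, and 5 rises and 3 falls under median centring. Gabarap, an autophagosome ubiquitin-like protein, averaged 388 ± 40.7 TPM in treated and 38.8 ± 1.41 TPM in control libraries, and Optn, an autophagy receptor, averaged 42.7 ± 9.31 TPM in treated and 8.13 ± 1.3 TPM in control libraries.

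Of hypoxia and glycolysis genes 16 of 33 rose and 2 fell. Slc2a3 had 536, 430.2 and 563 TPM in the 3 treated libraries, against 4.06, 4.61 and 1.59 TPM in the 3 control libraries. Slc2a3 changed by 6.92 ± 0.309 on the log2 scale (SE, n = 3 each, limma adjusted p = 8.96e-06). Slc2a3 encodes the glucose transporter GLUT3, and it stood at 114 ± 7.0 TPM in PrE controls. Bnip3, a mitophagy receptor induced by HIF, averaged 479.6 ± 38.6 TPM in treated and 73.1 ± 14.2 TPM in control libraries, and Ero1l, also induced by hypoxia, is described above with the chaperones. Abundant glycolytic enzymes moved less, with Pkm at 3016 ± 45.9 TPM in treated and 2239.9 ± 117 TPM in control libraries, and Ldha, Hk1, Hk2 and Slc2a1 did not pass. In control libraries this list too was lower in PrE for 18 of 35 members and higher for 7. The median of the list, 0.49, stood at -0.0036 when libraries were centred on their medians. The hypoxia and glycolysis list gave 10 to 17 rises and 1 to 2 falls with 1 library left out, and 10 rises and 5 falls under median centring.

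Of 26 tested sterol synthesis and uptake genes 11 fell, 3 rose and 12 did not pass. The sterol list gave 1 to 3 rises and 2 to 11 falls with 1 library left out, 1 rise and 15 falls under quantile normalization, and 1 rise and 15 falls under median centring. Without control library 1, 2 or 3 the falls numbered 2, 4 and 4. Idi1 had 17.9, 26.9 and 28.7 TPM in the 3 treated libraries, against 139, 122 and 124 TPM in the 3 control libraries. Idi1 changed by -2.37 ± 0.209 on the log2 scale (SE, n = 3 each, limma adjusted p = 0.000195). Idi1 isomerizes the building block of isoprenoids, and Mvd, the step before it, averaged 40.8 ± 28.8 TPM in treated and 125 ± 11.3 TPM in control libraries. Without control library 1, 2 or 3 the limma adjusted p of Mvd was 0.0953, 0.106 and 0.0854. Ebp (109 ± 31.3 TPM in treated and 37.7 ± 5.17 TPM in control libraries), Sc5d and Stard4 rose. Sc5d missed the threshold without control library 1 or 3 (limma adjusted p 0.0568 to 0.0587) and Stard4 without control library 1 or 2 (limma adjusted p 0.0610 to 0.0625). For 4 of the 11 falls (36.4%) the highest treated library lay below the 6 control libraries of the other tables, against 12.4% of all 1245 falls. In control libraries 9 of 27 members were higher in PrE than in Epi and 6 were lower. Of respiratory chain genes 15 of 30 fell and 2 rose, and 9 of the 15 falls lay below those 6 control libraries. The respiratory chain list gave 1 to 4 rises and 9 to 16 falls with 1 library left out, 5 rises and 7 falls under quantile normalization, and 0 rises and 21 falls under median centring.

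Of 30 DNA replication genes 18 fell and none rose. The replication list gave 0 rises and 11 to 17 falls with 1 library left out. Ccne1 had 64.3, 43.2 and 48.3 TPM in the 3 treated libraries, against 406, 363 and 383 TPM in the 3 control libraries. Ccne1 changed by -2.88 ± 0.161 on the log2 scale (SE, n = 3 each, limma adjusted p = 2.29e-05). Rrm2 had 236, 162 and 208 TPM in the 3 treated libraries, against 837, 773 and 759 TPM in the 3 control libraries. Rrm2 changed by -1.98 ± 0.139 on the log2 scale (SE, n = 3 each, limma adjusted p = 7.2e-05). Ccne1 encodes cyclin E1, which starts S phase, and Rrm2 the limiting subunit of ribonucleotide reductase. Gins1, a helicase subunit, averaged 35.9 ± 17.1 TPM in treated and 104 ± 5.9 TPM in control libraries and Ccne2 averaged 8.36 ± 2.41 TPM in treated and 35.5 ± 1.14 TPM in control libraries. Of mitotic genes 3 of 25 fell (12%) and 2 rose (8%), against 11.7% and 16.6% of all genes tested, and Mki67, Top2a, Aurkb and Cdk1 did not pass. The mitosis list gave 1 to 3 rises and 0 to 3 falls with 1 library left out, and 1 rise and 8 falls under median centring. Of CDK inhibitors 3 of 7 rose and none fell. The CDK inhibitor list gave 1 to 3 rises and 0 to 1 falls with 1 library left out, 2 rises and 1 fall under quantile normalization, and 2 rises and 2 falls under median centring. Cdkn1a had 241, 293 and 252 TPM in the 3 treated libraries, against 73.2, 82.3 and 75.8 TPM in the 3 control libraries. Cdkn1a changed by 1.75 ± 0.123 on the log2 scale (SE, n = 3 each, limma adjusted p = 7.24e-05). Cdkn1a encodes p21, and Cdkn1b, which encodes p27, averaged 24 ± 3.75 TPM in treated and 8.61 ± 1.19 TPM in control libraries. Of p53 targets 6 of 26 rose (23.1%) and 5 fell (19.2%). Eda2r, a TNF receptor family member, averaged 88.7 ± 25.6 TPM in treated and 14.1 ± 1.38 TPM in control libraries. Perp, a desmosomal p53 target, averaged 52.7 ± 10.1 TPM in treated and 221 ± 13.2 TPM in control libraries. The p53 list gave 4 rises and 7 falls under median centring. Gins1 missed the threshold without control library 1, 2 or 3 (limma adjusted p 0.0613 to 0.0732) and Cdkn1b without control library 2 or 3 (limma adjusted p 0.0513 to 0.0557). In control libraries 26 of 30 replication genes were lower in PrE than in Epi and none was higher.

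Cytosolic ribosomal protein genes fell, 36 of 40 with none that rose and a median log2 change of -0.56. The ribosomal protein list gave 0 to 1 rises and 28 to 34 falls with 1 library left out. Under quantile normalization 2 rose and 27 fell, with a median of -0.31. Rps9 had 1759.9, 2114 and 2037 TPM in the 3 treated libraries, against 3958, 4203 and 4132 TPM in the 3 control libraries. Rps9 changed by -1.06 ± 0.0752 on the log2 scale (SE, n = 3 each, limma adjusted p = 7.55e-05). Their summed level was 60717 to 66358 TPM in treated and 86480 to 91734 TPM in control libraries. Many have processed copies, whose share of reads is not known here. In the control comparison 37 of 40 were lower in PrE than in Epi. Of nucleolar ribosome biogenesis genes 12 of 30 fell and 2 rose. The ribosome biogenesis list gave 0 to 3 rises and 6 to 14 falls with 1 library left out, and 0 rises and 19 falls under median centring. Npm1, nucleophosmin, averaged 1792 ± 224 TPM in treated and 3365 ± 90 TPM in control libraries, and Rrp9, a processing factor, averaged 173 ± 61.4 TPM in treated and 369 ± 13.7 TPM in control libraries.

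Signalling genes changed in both directions, as all genes tested did, of which 16.6% rose and 11.7% fell. Of 18 FGF and ERK genes 2 rose (11.1%) and 3 fell (16.7%), and of 15 WNT genes 4 rose (26.7%) and 2 fell (13.3%). Of 16 BMP and Id genes 2 rose (12.5%) and 3 fell (18.8%), and of 18 Nodal genes 3 rose (16.7%) and 5 fell (27.8%). The FGF list gave 1 to 2 rises and 3 to 5 falls with 1 library left out, 1 rise and 5 falls under quantile normalization, and 2 rises and 6 falls under median centring. The WNT list gave 5 rises and 4 falls under quantile normalization, and 4 rises and 4 falls under median centring. The BMP list gave 2 to 3 rises and 2 to 5 falls with 1 library left out, 2 rises and 5 falls under quantile normalization, and 2 rises and 6 falls under median centring. The Nodal list gave 3 to 4 rises and 3 to 6 falls with 1 library left out. Fgf10, a ligand, averaged 21.8 ± 4.87 TPM in treated and 0.0934 ± 0.162 TPM in control libraries, and a pair of WNT effectors moved apart. Tcf7l2 averaged 86.4 ± 14.9 TPM in treated libraries, against 12.5 ± 1.86 TPM in control libraries and Lef1 averaged 2.82 ± 2.35 TPM in treated libraries, against 30.1 ± 1.34 TPM in control libraries. Among BMP response genes Id2 fell (315 ± 17.3 TPM in treated and 1289 ± 23.7 TPM in control libraries) and Id1 rose (74.2 ± 23.3 TPM in treated and 14.5 ± 2.69 TPM in control libraries). Cfc1, a Nodal co-receptor, rose (56.1 ± 15.1 TPM in treated and 0.765 ± 0.729 TPM in control libraries), whereas the co-receptor Tdgf1 fell. Porcn, which WNT secretion needs, was listed at 0 in every control library and at 6.03, 23.6 and 24.7 TPM in treated libraries. Of 29 epithelial junction genes 6 rose (20.7%) and 3 fell (10.3%). The junction list gave 3 to 6 rises and 2 to 4 falls with 1 library left out, 3 rises and 3 falls under quantile normalization, and 2 rises and 6 falls under median centring. Cdh1 did not pass (34.1 ± 14.9 TPM in treated and 37.6 ± 7.36 TPM in control libraries), Epcam is among those that fell (293 ± 65.8 TPM in treated and 633 ± 7.32 TPM in control libraries), and only 4 of 20 mesenchymal genes passed the filter, with Fn1 the 1 that rose. Of DNA methylation enzymes 3 of 13 rose (23.1%) and 3 fell (23.1%). Dnmt1 averaged 8.98 ± 2.01 TPM in treated and 19.7 ± 4.13 TPM in control libraries, Dnmt3l averaged 288 ± 58.3 TPM in treated and 151 ± 8.39 TPM in control libraries and Tet2 averaged 6.37 ± 2.72 TPM in treated and 1.39 ± 0.212 TPM in control libraries. Fn1 missed the threshold without control library 1, 2 or 3 (limma adjusted p 0.108 to 0.127), Dnmt1 without control library 1, 2 or 3 or treated library 2 (limma adjusted p 0.0582 to 0.206) and Tet2 without control library 1, 2 or 3 or treated library 1 or 3 (limma adjusted p 0.0584 to 0.146). The DNA methylation list gave 1 to 3 rises and 1 to 3 falls with 1 library left out, 2 rises and 4 falls under quantile normalization, and 0 rises and 5 falls under median centring. Of imprinted genes 8 of 22 rose (36.4%) and 4 fell (18.2%). The imprinted list gave 4 to 6 rises and 2 to 7 falls with 1 library left out, 4 rises and 6 falls under quantile normalization, and 4 rises and 6 falls under median centring. Rian, a maternal non-coding RNA, averaged 17.5 ± 6.05 TPM in treated and 2.51 ± 0.720 TPM in control libraries, and Mest, a paternally expressed gene, averaged 18.4 ± 2.26 TPM in treated and 89.4 ± 2.43 TPM in control libraries.

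**Figure D4:**
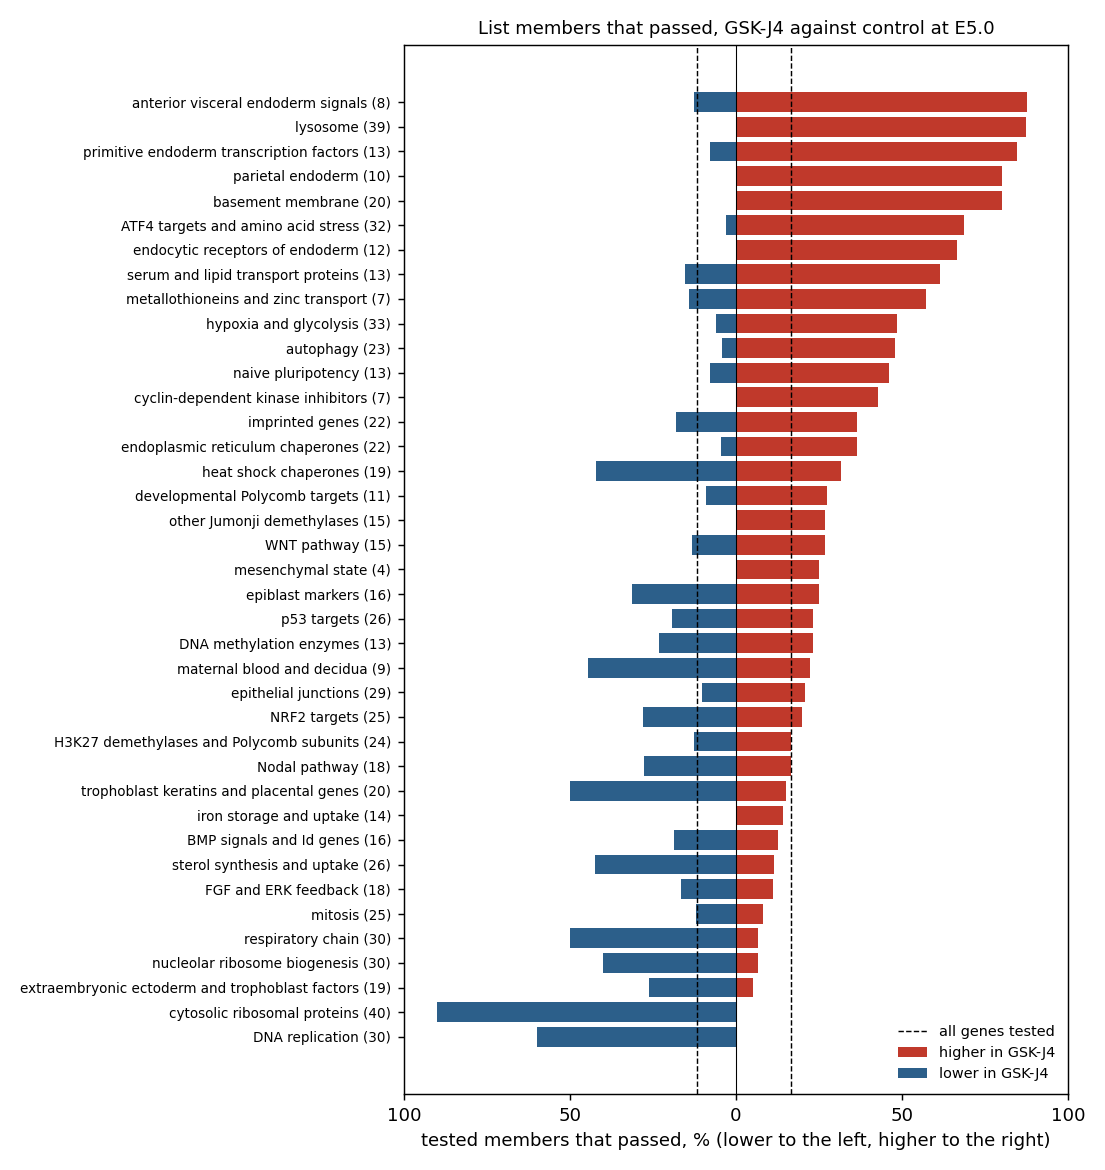
Share of tested members of each of 39 lists that passed, with higher in GSK-J4 to the right (red), lower to the left (blue), and dashed lines at the 16.6% and 11.7% of all genes tested. The number of tested members stands in parentheses, and a gene can belong to more than 1 list.

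The genes were next grouped by lineage in control libraries that the E5.0 comparison did not use. Of 1712 genes at least 2-fold higher in control PrE, 1351 passed the E5.0 filter. Among these 562 rose (41.6%) and 47 fell (3.48%). Of 3689 genes at least 2-fold higher in control Epi, 3361 passed the filter, and 281 rose (8.36%) and 665 fell (19.8%). Of 4411 neutral genes, 3253 passed the filter, and 519 rose (16%) and 224 fell (6.89%). A gene near 0 in the control libraries passed the filter only where treated libraries reached 1 TPM. The filter therefore favours rises among PrE-high genes, and these shares are of tested genes only. PrE-high genes made up 31.6% of the rises, and Epi-high genes 53.4% of the falls. Rises among neutral genes included Gpx3, a secreted glutathione peroxidase, at 344 ± 20.8 TPM in treated and 20.3 ± 4.88 TPM in control libraries, and Rmc1, a subunit of a late endosomal GTPase regulator, at 473 ± 81.8 TPM in treated and 40.3 ± 1.87 TPM in control libraries. Pramel7, a factor of the naive state, was listed at 0 in every control library and at 29.8, 39.3 and 32.5 TPM in treated libraries. Falls among neutral genes included Upp1, uridine phosphorylase, at 62.4 ± 17.7 TPM in treated and 237 ± 9.44 TPM in control libraries, and Ier3, an immediate early gene, at 4.15 ± 4.6 TPM in treated and 25.7 ± 2.32 TPM in control libraries. Ier3 missed the threshold without control library 1, 2 or 3 (limma adjusted p 0.101 to 0.113).

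Stage was set beside lineage in the same way, with a class chosen after the data were seen. A gene was called E4.5-high where the E4.5 controls lay at least 2-fold above wild-type Epi controls of the Suz12 Eed table at E5.0 with no overlap, and E5.0-high in the reverse case; no library is shared with the E5.0 comparison. Only genes that passed the E5.0 filter were classed by stage, so the same limit holds here. Of 1390 E4.5-high genes, 531 rose with GSK-J4 at E5.0 (38.2%) and 71 fell (5.11%). Of 1822 E5.0-high genes, 128 rose (7.03%) and 367 fell (20.1%), and of 7469 similar genes 1119 rose (15.0%) and 807 fell (10.8%). The order held inside each lineage class. The stage and lineage classes share the Epi controls of the Suz12 Eed table as reference, so this split cannot separate stage from lineage. Among PrE-high genes 67.9% of the 318 E4.5-high ones rose, against 20.3% of the 236 E5.0-high ones. Among neutral genes 34.5% of the 403 E4.5-high ones rose and 2.98% fell, against 8.30% and 12.7% of the 482 E5.0-high ones. The E4.5 controls also carried PrE markers, with Dab2 at 375 ± 30.6 TPM and Amn at 222 ± 31.9 TPM, so stage and endoderm content cannot be told apart in them.

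**Figure D5:**
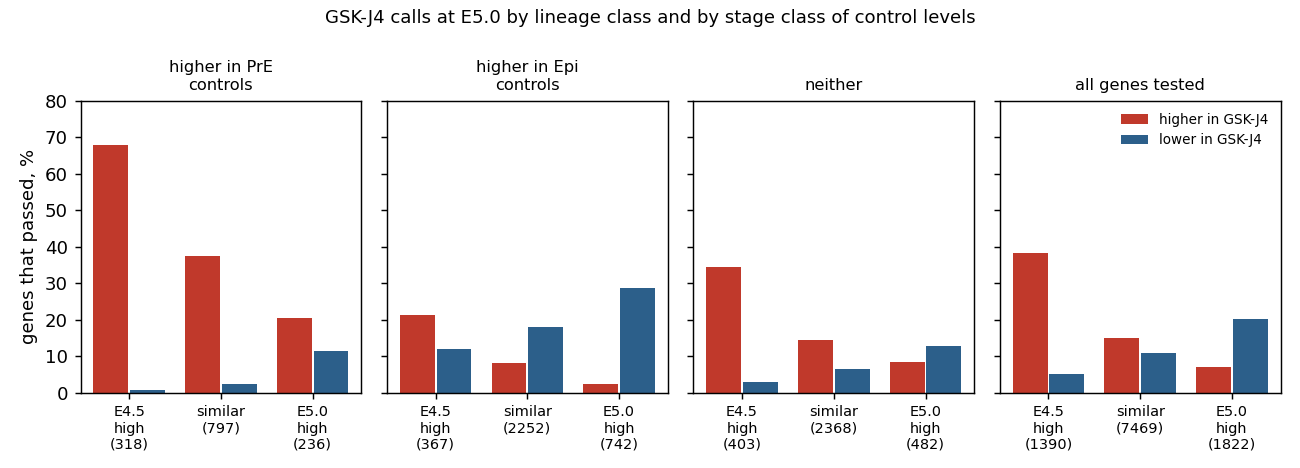
Percent of genes that passed in the GSK-J4 comparison at E5.0, higher (red) or lower (blue), by stage class of control levels (horizontal axis, number of genes in parentheses) in 3 lineage classes and over all genes tested. In each panel the share that rose is largest for E4.5-high genes, and the share that fell is largest for E5.0-high genes.

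The same compound at E4.5 gave far fewer calls: 61 of 9982 genes rose (0.611%) and 54 fell (0.541%), with libraries of each group less alike than the E5.0 controls. Of 1631 genes that rose at E5.0 and were tested at E4.5, 35 rose (2.15%) and 12 fell (0.736%). Of 1052 that fell at E5.0, 5 rose (0.475%) and 25 fell (2.38%). Over all 9265 genes tested at both stages, 0.594% rose and 0.572% fell at E4.5. Mt1 rose at both stages, at 4128 ± 394 TPM in GSK-J4 libraries at E4.5, against 1425 ± 92.2 TPM in their controls (log2 change 1.53 ± 0.0859 SE, limma adjusted p = 3.63e-06). Mt2 did the same (log2 change 1.14 ± 0.0931 SE, limma adjusted p = 6.09e-05), as did Adh1 (log2 change 2.95 ± 0.217 SE, limma adjusted p = 2.71e-05). Spink1, which rose at E5.0, fell at E4.5 (log2 change -1.97 ± 0.386 SE, limma adjusted p = 0.035). Of 18 trophoblast keratins and placental genes tested at E4.5, 8 fell and none rose, with a median log2 change of -0.89. For the PrE factors, 0 of 14 PrE factors passed with limma at E4.5 (2 at an unadjusted p under 0.05), and of 35 ATF4 targets none rose and 2 fell. Of 39 lysosomal genes 3 rose there and none fell, with a median of 0.24. Whether the stages differ was not tested, since the tables were made separately.

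Knockouts of the compound's targets were each set against their own controls. After Kdm6a KO, 1084 of 12173 genes were higher (8.9%) and 468 lower (3.84%), and after Kdm6b KO 253 of 11805 genes were higher (2.14%) and 707 lower (5.99%). The targeted gene stood at 2.68 ± 0.747 TPM in Kdm6a KO against 5.19 ± 0.626 TPM in its controls, and at 4.29 ± 1.67 TPM in Kdm6b KO against 8.06 ± 6.49 TPM in its controls, and neither difference passed (limma adjusted p = 0.166 and limma adjusted p = 0.627). Of 1683 genes that rose with GSK-J4 and were tested in the Kdm6a KO fit, 200 were higher there (11.9%) and 76 lower (4.52%). The shares over all 10474 genes tested in both were 9.89% and 4.38%. Of 1667 risen genes tested in the Kdm6b KO fit, 21 were higher (1.26%) and 189 lower (11.3%). All 10258 genes tested in both gave 2.40% and 6.68%. Of 1238 genes that fell with GSK-J4, 180 were higher after Kdm6a KO (14.5%) and 172 lower (13.9%), and of 1210 tested after Kdm6b KO, 118 were higher (9.75%) and 133 lower (11%). Dab2 was lower in both knockouts, at 5.64 ± 1.86 TPM in Kdm6a KO against 15.3 ± 2.0 TPM in controls, and at 1.01 ± 0.196 TPM in Kdm6b KO against 13.9 ± 1.95 TPM in controls. Ddit3, Nupr1 and Glb1 passed in neither knockout. These comparisons differ in how and when the enzymes were affected, and the differences between them were not tested.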

How the data were processed

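RNA labelled as polyA, from Epi cells, was profiled by Smart-seq2 per the design text. The values are TPM per gene, computed and deposited by the authors. The submitters' processing notes name mm10, Cufflinks, StringTie 2.2.1 and HISAT2 2.2.1 without giving their roles; how reads that map to several places or strands were handled is not given in the sources used here. Read counts were not used and depth is unknown, so no counting error can be given. The 6 columns summed to 989911 to 993333 TPM.

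Of 25006 genes in the E5.0 table, 10681 reached 1 TPM in 3 or more libraries and entered the test. The fit was made with limma 3.58.1 (R 4.3.3, eBayes with trend) to log2(TPM + 1), and Benjamini-Hochberg adjustment ran over every gene tested, at 0.05. The E5.0 table was fitted alone. The PrE fit used all groups of its table, with the near copies PrE controls 1 and 2 averaged, a choice made from their correlation after the data were seen. The knockout fits used all groups of their screen batch. Classes were PrE-high or Epi-high (passed, 2-fold or more) and neutral (not passed, under 1.5-fold). The stage classes and the comparison of treated libraries with the 6 control libraries of other tables were added after the data were seen. The remaining tables of the series were not used here.

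Named genes were the 12 largest rises and 12 largest falls on the log2 scale at 50 TPM or more, the 10 largest each way in TPM, up to 5 passing members per list at 5 TPM or more, the 8 largest each way in the neutral class at 20 TPM or more, the marker genes, Kdm6a and Kdm6b. Other list members were named after their values were seen. The members and the 39 lists were chosen with earlier results of these data known. Promoter windows came from RefSeq (GRCm38.p6). The fitting script was run on simulated data with the same spread in both groups. That run does not cover the unequal spread of the treated and control libraries. Figures were drawn with matplotlib 3.10.9 in Python 3.11.15. Alternatives were a pseudocount of 0.1 TPM, no filter, quantile normalization, median centring, leaving out the 10 most abundant genes, library weights, a 2-fold minimum, the replicate block and leaving out each library.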

Additional observations from a re-analysis of the deposited data

Results flagged for a closer look

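For 14 of 129 genes named above with at least 5 TPM at both stages (10.9%), every GSK-J4 library lay beyond every control library at both stages, in opposite directions, and for 36 in the same direction (27.9%). Over all 7428 such genes tested at E5.0 the shares were 2.64% and 8.01%; the named genes were chosen for their change at E5.0. For the 14, the difference between stages was not tested, and the tables were made separately. Lack of overlap between 3 and 3 libraries is not a test, and many of the 14 did not pass at E4.5. Herpud1, Dab2, Cdkn1a and Dnmt3l belong to lists of which 0 members fell at E4.5 at an adjusted p under 0.05. In the ATF4 list, which holds Nupr1, Trib3 and Chac1, 2 members fell there. Rises at E5.0 stood beside lower GSK-J4 values at E4.5 for the stress genes Nupr1 (log2 change 3.55 at E5.0 and -0.627 at E4.5), Trib3 (2.40 and -1.20), Chac1 (2.05 and -0.585) and Herpud1 (1.36 and -0.451). Nupr1 spanned 286 to 415 TPM in GSK-J4 and 508 to 583 TPM in control libraries at E4.5. The same order held for Spink1 (8.08 and -1.97) and Dab2 (6.15 and -0.385), for Otx2 (1.15 and -2.35) and Dnmt3l (0.91 and -0.569), and for Cdkn1a (1.75 and -0.36) and Pkm (0.43 and -0.598). Cldn6 (1.39 and -1.11) and Lgals3 (1.24 and -1.09), members of the placental list, did likewise. In the other direction, Hspe1 stood at -0.90 and 0.159 and Upp1 at -1.95 and 0.385. Of these, Spink1 had 18.7 to 36.5 TPM in GSK-J4 and 82.1 to 105 TPM in control libraries at E4.5.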

How the results depend on the processing

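At E5.0, 3023 genes passed, and 1674 to 3612 passed when 1 library was left out; the lower counts came without a control library. With the controls averaged to 1 library, an alternative added after seeing the data, 455 passed. The replicate block gave 2548, but same-numbered libraries did not deviate together (r 0.0044 to 0.012), so the numbers were not taken as pairs. At E4.5, 115 genes passed, 19 without the filter, 76 at 2-fold or more, and 39 to 60 with 1 library left out; the replicate block gave 87. For Kdm6a KO 1552 passed, 2415 with library weights, 646 at 2-fold or more, 907 to 1378 with 1 library left out, and 1422 with the replicate block. For Kdm6b KO 960 passed, 561 without the filter, 1483 with library weights, 584 at 2-fold or more, 511 to 755 with 1 library left out, and 979 with the replicate block. For Kdm6a KO, with 1084 higher and 468 lower, quantile normalization gave 604 and 673, and median centring 367 and 1257. For Kdm6b KO, with 253 higher and 707 lower, they gave 321 and 326, and 584 and 247. Control PrE against control Epi gave 6595 calls, of which 2177 were higher and 4418 lower, 6491 calls with the replicate block, and a split of 3150 and 3336 under quantile normalization or 3121 and 3121 under median centring. The causes were not tested. Of 39 list medians at E5.0, 21 were above 0, and 11 were so under median centring, which moved the median of all genes to -0.37; quantile normalization moved it to -0.08. Under both scalings the medians of the Polycomb, other Jumonji and junction lists changed sign. Of 148 named genes that passed, 26 missed the threshold without control library 1, as many did without control library 2 or 3, and 87 did with the controls averaged. Pkm turned to -0.0597 under median centring, and Ftl1, the most abundant gene, has no change under quantile normalization by construction. Calls lost without 1 library are given beside each gene, with adjusted p up to 0.208 (Jarid2 without control library 2). Without read counts, how depth limits low genes is unknown.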
